A study of Homo sapiens with 8 samples.

Results

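Aminoacyl-tRNA synthetases join each amino acid to its tRNA, and the mRNAs of 36 of these enzymes and of 2 scaffold proteins, AIMP1 and AIMP2, were followed from whole-cell RNA into RNA pulled down with the ribosomal protein RPS6. The 38 genes were taken by name from the 57756 genes that the expression tables list. The list was chosen with earlier results of these data known. They comprised 20 cytosolic enzymes, 16 mitochondrial enzymes, whose names end in 2, and the 2 scaffold proteins. All 38 names were found once, and all 38 genes passed the minimum of a mean of 10 counts and were tested.

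Cytosolic synthetases supply charged tRNA to the ribosomes of the cytoplasm. A subset of them is held together with AIMP1, AIMP2, and EEF1E1 in the multisynthetase complex, whereas the others work as free enzymes. Mitochondrial synthetases are encoded in the nucleus, are translated in the cytoplasm, and are then imported to charge the tRNAs used by mitochondrial ribosomes, so that for most amino acids a human cell carries a pair of genes. Many cytosolic synthetase genes are known targets of ATF4, the transcription factor that is induced when amino acids run short.

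RPS6 is part of the small ribosomal subunit, and RNA immunoprecipitation (RIP) with an antibody against it was performed in 4 established cancer cell lines. These were Hep3B (hepatocellular carcinoma), HCT116 (colorectal cancer), DU145 (prostate cancer), and SW1990 (pancreatic cancer), and the labels give no treatment or genetic change for any of them. Each cell line gave 1 RIP library and 1 library of the matching input, which was total RNA before the pulldown, 8 libraries in all. The liver pair is named 3B in its titles and Huh7 in its source names and its cell line labels, and it is called Hep3B here. With 1 pair per cell line, p-values rest on the spread between pairs, in which cell line, pulldown, and library cannot be told apart. No cell line has a replicate pair. No pulldown with a control antibody was analysed here, so binding to RPS6 and background in the pulldown cannot be told apart.

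The inputs held between 35796194 and 54209625 fragments, and the RIP libraries between 34630338 and 42610081. A synthetase or scaffold gene had between 91 and 73744 fragments in a library. Tissue markers were checked in the inputs. All 6 liver markers were highest in Hep3B, with ALB at 5030 FPKM (fragments per kilobase of transcript, scaled to the depth of the library). HCT116 had 1 of 5 intestine markers at 1 FPKM or more (CDX2, 6.25 FPKM), and VIL1, CDX1, and LGR5 were listed at 0. In DU145, the prostate markers KLK2, KLK3, TMPRSS2, and HOXB13 were listed at 0, and the level of other prostate markers is not reported here. SW1990 had 4 of 6 pancreatic duct markers at 1 FPKM or more, among them KRT19 at 229 FPKM, and CEACAM6 was listed at 0. Apart from the liver markers, the markers did not single out the labelled tissue. KRT19 was higher in HCT116 (570 FPKM) than in SW1990, and MUC1 was 76.6 FPKM in DU145 against 1.16 FPKM in SW1990. SW1990 had 4 of 5 intestine markers at 1 FPKM or more, with CDX2 at 86.6 FPKM, and Hep3B had VIL1 at 151 FPKM.

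The comparison of RIP with input asks which mRNAs were more abundant in RNA recovered with RPS6 than in the whole cell. Most synthetase mRNAs made up a larger part of the RPS6 RIP than of the input. RIP was tested against input on the deposited estimated counts with edgeR's quasi-likelihood test, blocked by cell line, with Benjamini-Hochberg adjustment over all 19921 genes tested. Of the 38 genes, 23 were higher in RIP (60.5%), 7 were lower (18.4%), and 8 did not pass the adjusted threshold of 0.05. Among all genes tested, 26.5% were higher and 24.9% were lower. The median log2 fold change of RIP over input was 0.96 for the 38 genes and -0.05 for all genes tested. For the 9 of the 38 that share their listed locus with no other gene, it was -0.16. Values are shares of a library, so that more of these mRNAs and less of others in a pulldown cannot be told apart. Without TMM (trimmed mean of M-values) scaling, which moved the median of all genes to -0.40, 20 of the 38 were higher and 10 were lower, beside 19.5% and 32.0% of all genes. Without the block for cell line, 9 were higher and 1 was lower, beside 7.16% and 6.75% of all genes. Without the DU145 pair, 22 were higher and 3 were lower, beside 22.7% and 20.8%.

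The direction was shared by the cell lines for most of the genes. The log2 ratio of RIP to input was above 0 in 4 of 4 cell lines for 23 genes, as it was for 29.2% of all genes tested, and below 0 in 4 of 4 for 6 genes, as it was for 30.0% of all. For 10 genes, every RIP library stood above every input (VARS, FARSA, VARS2, AARS, AARS2, MARS, TARS2, GARS, QARS, and LARS2), a pattern found in 10.4% of all genes. For AIMP1 and RARS, every RIP library stood below every input, as it did in 12.2% of all genes.

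**Figure D1:**
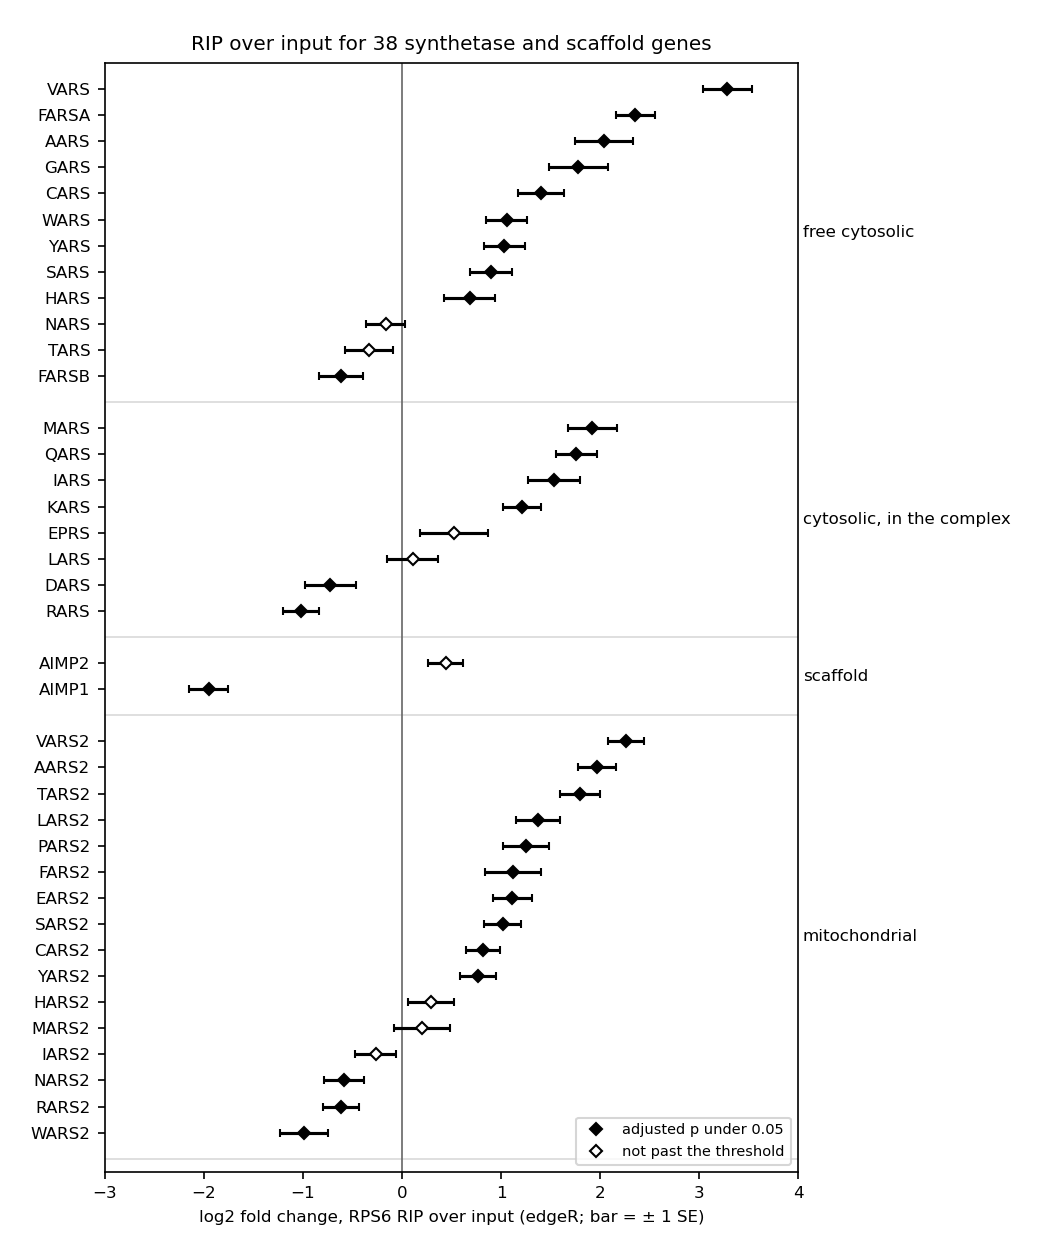
Log2 fold change of RPS6 RIP over input for the 38 genes, in 4 groups by place in the cell, with bars of 1 SE from the edgeR fit over 4 pairs; filled points passed the adjusted threshold of 0.05. Values ran from -1.95 for AIMP1 to 3.29 for VARS, and 23 filled points lie right of 0 and 7 left of it.

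The 12 free cytosolic enzymes had 9 genes higher in RIP, 1 lower (FARSB), and 2 that did not pass (NARS and TARS), with a median log2 fold change of 1.05. These were 75.0% higher and 8.3% lower, beside 26.5% and 24.9% of all genes tested. All 20 cytosolic enzymes also had a median of 1.05, or 0.70 without TMM. In what follows, levels in RIP and input are counts scaled to TMM-normalised library size (normalised CPM). Values for the cell lines are given in the order Hep3B, HCT116, DU145, SW1990. Errors of log2 fold changes are standard errors (SE) derived from the edgeR fit over the 4 pairs. Each is the absolute log2 fold change divided by the square root of the quasi-likelihood F statistic, also in the figures.

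VARS, the cytosolic valyl-tRNA synthetase (chr6:31745294-31763730, hg19), had the highest fold change of all 38. Its CPM was 125, 179, 150, and 106 in the inputs and 1051, 2183, 1100, and 1272 in the RIP libraries. The lowest RIP value was therefore far above the highest input value. The fold change was 9.75, or 3.29 ± 0.25 on the log2 scale (edgeR adjusted p = 1.27e-05). The locus given for VARS is listed for 2 genes, as are those given below for FARSA, AIMP1, and VARS2.

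The cytosolic phenylalanyl-tRNA synthetase is built from an alpha subunit, FARSA (chr19:13033292-13044851), and a beta subunit, FARSB (chr2:223435254-223521056). FARSA had 51.7, 93.5, 47.3, and 73.1 CPM in the inputs and 282, 546, 245, and 305 CPM in the RIP libraries, with no overlap between the groups. FARSB had 41.7, 76.8, 41.4, and 59.4 CPM in the inputs and 17.1, 75.6, 30.9, and 35.4 CPM in the RIP libraries, so that the HCT116 pair was level and the groups overlapped. The mRNAs of the 2 subunits thus had similar input CPM and moved in opposite directions. FARSA rose by 2.36 ± 0.19 on the log2 scale (edgeR adjusted p = 1.37e-05), whereas FARSB had a log2 fold change of -0.62 ± 0.23 (edgeR adjusted p = 0.0429). The difference between their log2 ratios was 3.73, 2.57, 2.79, and 2.81 in the 4 cell lines, with a mean of 2.98 ± 0.52 (SD, n = 4; two-sided exact permutation test by sign flips, p = 0.125, the smallest that 4 cell lines allow). The call for FARSB alone was lost without the Hep3B, DU145, or SW1990 pair (log2 fold changes of -0.49, -0.68, and -0.57). On log2(FPKM + 1) it was -0.29 and did not pass, so that the lower level of FARSB in RIP is less certain than the higher level of FARSA.

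AARS, the cytosolic alanyl-tRNA synthetase, had 73.0, 107, 126, and 52.0 CPM in the inputs and 171, 919, 519, and 181 CPM in the RIP libraries. The groups did not overlap, and HCT116 had the highest RIP value. Its log2 fold change was 2.04 ± 0.29 (edgeR adjusted p = 0.000233). GARS, which charges glycine tRNA in the cytosol and in mitochondria, had even inputs of 187, 196, 180, and 158 CPM and RIP values of 351, 1245, 473, and 701 CPM. All 4 RIP libraries stood above the inputs, and the log2 fold change was 1.78 ± 0.30 (edgeR adjusted p = 0.000629).

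TARS, the cytosolic threonyl-tRNA synthetase, was among the 3 most abundant of these mRNAs in the inputs and did not pass the test. It had 136, 153, 323, and 105 CPM in the inputs and 67.6, 216, 237, and 80.8 CPM in the RIP libraries. The ratio was above 0 in HCT116 and below 0 in the other 3 cell lines, and the log2 fold change was -0.34 ± 0.24 (edgeR adjusted p = 0.279). It was 0.03 when tested on FPKM in place of counts.

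WARS, the cytosolic tryptophanyl-tRNA synthetase and a known interferon-induced gene, had 53.3, 107, 55.7, and 80.6 CPM in the inputs and 81.8, 276, 95.4, and 223 CPM in the RIP libraries. RIP exceeded the input of the same cell line in 4 of 4, although the groups overlapped. Its log2 fold change was 1.06 ± 0.21 (edgeR adjusted p = 0.00166). The remaining free enzymes that were higher in RIP were CARS (1.40), YARS (1.03), SARS (0.90), and HARS (0.69), for cysteine, tyrosine, serine, and histidine. NARS, for asparagine, had -0.16 and did not pass, and its value was 0.18 when tested on FPKM.

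**Figure D2:**
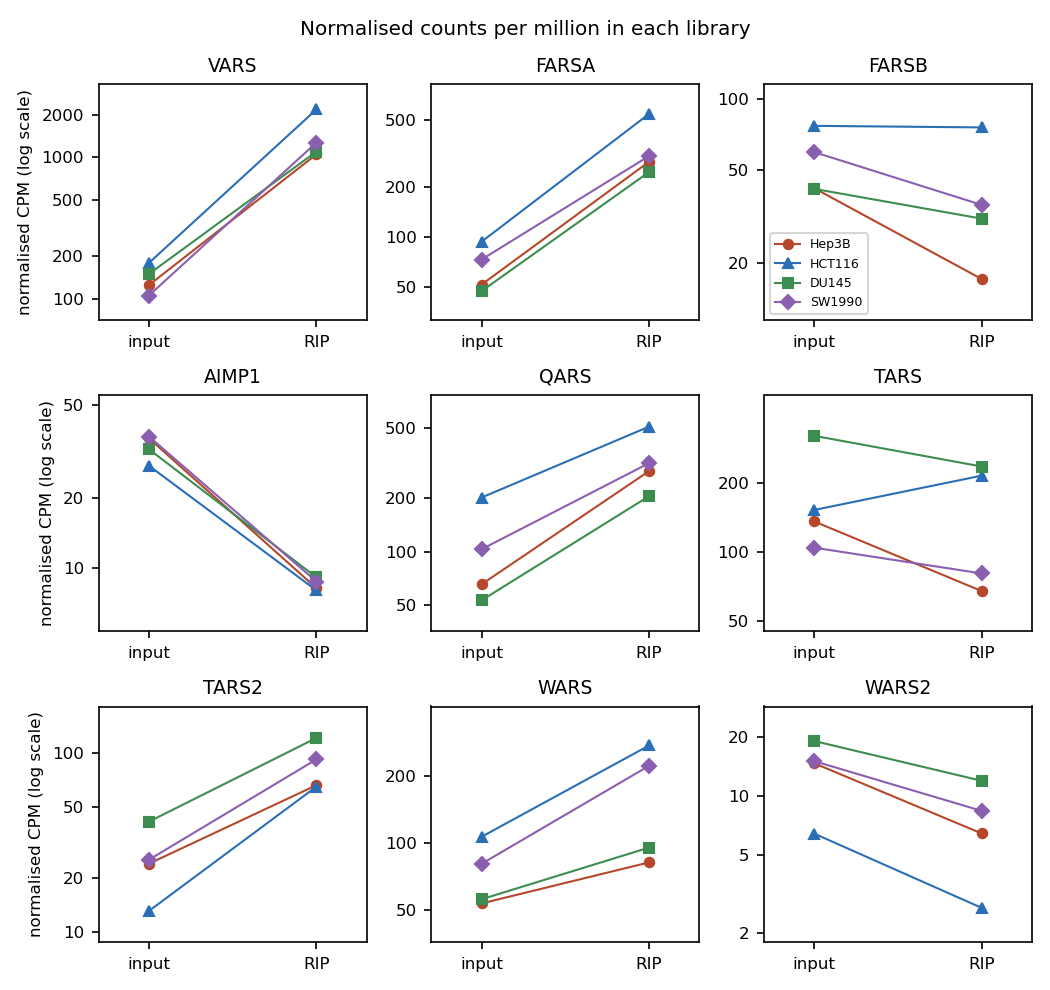
Normalised CPM (log scale) of 9 genes in the input and the RPS6 RIP library of each cell line, with a line joining the 2 libraries of 1 cell line. VARS, FARSA, QARS, TARS2, and WARS go up and AIMP1 and WARS2 go down in all 4 cell lines, whereas TARS goes up only in HCT116 and FARSB is level there.

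The 8 synthetases of the multisynthetase complex did not move as 1 group. MARS, QARS, IARS, and KARS were higher in RIP, RARS and DARS were lower, and EPRS and LARS did not pass, with a median log2 fold change of 0.87. Neither scaffold gene was higher.

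MARS, the cytosolic methionyl-tRNA synthetase, had 149, 132, 141, and 160 CPM in the inputs and 395, 757, 403, and 759 CPM in the RIP libraries. Its inputs were close to each other and all RIP libraries stood above them, with a log2 fold change of 1.92 ± 0.25 (edgeR adjusted p = 0.000119). QARS, for glutamine, had 65.2, 202, 53.0, and 103 CPM in the inputs and 285, 509, 206, and 316 CPM in the RIP libraries. The lowest RIP value, in DU145, was close to the highest input value, in HCT116, and did not overlap it. The log2 fold change of QARS was 1.76 ± 0.21 (edgeR adjusted p = 6.66e-05). IARS (1.54) and KARS (1.21), for isoleucine and lysine, were also higher in 4 of 4 cell lines.

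RARS, the cytosolic arginyl-tRNA synthetase (chr5:167913449-167946304), had 53.5, 67.2, 43.4, and 59.7 CPM in the inputs and 23.3, 40.3, 22.5, and 26.0 CPM in the RIP libraries. Every RIP value was below every input value. The input was 2.03-fold above the RIP, with a log2 fold change of -1.02 ± 0.18 (edgeR adjusted p = 0.000995). DARS, for aspartate, had 64.2, 108, 46.1, and 55.9 CPM in the inputs and 30.1, 133, 19.4, and 31.4 CPM in the RIP libraries. It was lower in RIP in 3 cell lines and higher in HCT116 (log2 ratio 0.30). Its log2 fold change of -0.72 ± 0.26 passed the threshold (edgeR adjusted p = 0.0385), and without the Hep3B, DU145, or SW1990 pair it did not (-0.69, -0.54, and -0.69). On log2(FPKM + 1) it was -0.31 and did not pass. For RARS it was -0.59 on that scale, which passed.

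EPRS, a fused enzyme that charges the tRNAs of glutamate and proline, is described after its values were seen, because a single library stood apart. Its CPM was 152, 152, 142, and 107 in the inputs and 108, 601, 159, and 152 in the RIP libraries. The HCT116 RIP was far above the other 3, and the log2 ratios ran from -0.49 in Hep3B to 1.98 in HCT116. The log2 fold change was 0.52 ± 0.35 (edgeR adjusted p = 0.233). It was 0.068 without the HCT116 pair, 0.18 without TMM, and 0.87 on log2(FPKM + 1), and none of these passed. LARS, for leucine, had log2 ratios of -0.48, 1.05, 0.23, and -0.35, and its log2 fold change of 0.11 turned to -0.19 without the HCT116 pair and to -0.24 without TMM.

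AIMP1, the scaffold protein that binds RARS in the complex, had the lowest fold change of the 38 (chr4:106962755-107270383). It had 36.1, 27.5, 32.4, and 36.7 CPM in the inputs and 8.20, 8.02, 9.12, and 8.75 CPM in the RIP libraries. Both groups were narrow and well apart. The input was 3.87-fold above the RIP, with a log2 fold change of -1.95 ± 0.20 (edgeR adjusted p = 2.86e-05). AIMP2, the scaffold protein at the core of the complex, had log2 ratios of 0.59, 0.49, 0.29, and 0.40, all above 0, and did not pass (log2 fold change 0.44, edgeR adjusted p = 0.0566). It passed with DESeq2 and with limma on log2(FPKM + 1) and under no other alternative, and its log2 fold change was 0.093 without TMM and 0.30 without the Hep3B pair. The difference between the AIMP2 and AIMP1 log2 ratios had a mean of 2.40 ± 0.26 (SD, n = 4; two-sided exact permutation test by sign flips, p = 0.125).

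Of the 16 mitochondrial enzymes, 10 were higher in RIP, 3 were lower (WARS2, RARS2, and NARS2), and 3 did not pass (HARS2, MARS2, and IARS2). These were 62.5% higher and 18.8% lower, beside 26.5% and 24.9% of all genes tested. The median log2 fold change of the 16 was 0.92, or 0.57 without TMM, where the median of all genes was -0.40.

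VARS2, the mitochondrial valyl-tRNA synthetase (chr6:30875960-30894236), had 27.8, 24.5, 45.2, and 18.5 CPM in the inputs and 127, 119, 189, and 105 CPM in the RIP libraries. All RIP values were above all inputs, with a log2 fold change of 2.26 ± 0.18 (edgeR adjusted p = 1.29e-05). AARS2, for alanine, had 20.8, 12.8, 21.0, and 21.5 CPM in the inputs and 68.4, 43.2, 101, and 94.6 CPM in the RIP libraries. HCT116 was lowest in both kinds of library, and the log2 fold change was 1.97 ± 0.19 (edgeR adjusted p = 2.42e-05). TARS2, for threonine, had 24.1, 13.1, 41.5, and 25.4 CPM in the inputs and 66.4, 65.2, 122, and 92.7 CPM in the RIP libraries. Its groups did not overlap, and the log2 fold change was 1.80 ± 0.20 (edgeR adjusted p = 5.27e-05).

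FARS2, the mitochondrial phenylalanyl-tRNA synthetase, is a single protein and had few counts. It had 7.43, 6.07, 4.84, and 4.58 CPM in the inputs and 20.9, 12.8, 6.29, and 13.1 CPM in the RIP libraries. The DU145 pair differed least, and the log2 fold change was 1.12 ± 0.28 (edgeR adjusted p = 0.00710). The other mitochondrial genes that were higher in RIP were LARS2 (1.37), PARS2 (1.25), EARS2 (1.11), SARS2 (1.02), CARS2 (0.82), and YARS2 (0.77), for leucine, proline, glutamate, serine, cysteine, and tyrosine.

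WARS2, the mitochondrial tryptophanyl-tRNA synthetase, had 14.7, 6.42, 19.1, and 15.0 CPM in the inputs and 6.43, 2.68, 11.9, and 8.38 CPM in the RIP libraries. The RIP was lower than the input in 4 of 4 cell lines. The log2 fold change was -0.99 ± 0.24 (edgeR adjusted p = 0.00606). RARS2, for arginine, had 33.2, 39.5, 22.8, and 43.8 CPM in the inputs and 17.8, 24.9, 16.7, and 32.1 CPM in the RIP libraries. It was lower in 4 of 4 cell lines with overlap between the groups, and its log2 fold change was -0.62 ± 0.19 (edgeR adjusted p = 0.0182). NARS2, for asparagine, had a log2 fold change of -0.58 (edgeR adjusted p = 0.0322). Without the HCT116 or the DU145 pair, neither RARS2 (-0.59 and -0.67) nor NARS2 (-0.53 in both) passed. On log2(FPKM + 1) neither passed, with smaller log2 fold changes of -0.16 for RARS2 and -0.39 for NARS2.

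MARS2, the mitochondrial methionyl-tRNA synthetase, had 28.9, 16.3, 6.61, and 40.1 CPM in the inputs and 53.7, 20.3, 9.31, and 21.1 CPM in the RIP libraries. SW1990 went down, with a log2 ratio of -0.93, and the other 3 cell lines went up. Its log2 fold change of 0.20 did not pass (edgeR adjusted p = 0.584) and was -0.13 without the Hep3B pair, -0.15 without TMM, and 0.57 without the SW1990 pair, where it did not pass either. IARS2 (-0.27) and HARS2 (0.29, and -0.06 without TMM) did not pass either.

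On the FPKM scale fewer genes were lower. With limma on log2(FPKM + 1), 23 of the 38 were higher and 3 were lower, AIMP1, RARS, and WARS2, beside 25.2% and 18.2% of all genes. On log2(FPKM + 0.1), 20 were higher and 2 were lower, beside 25.0% and 18.5%. The ratio of FPKM to CPM of a gene differed between libraries, as for EPRS, which had the lowest CPM of the 4 inputs in SW1990 and the highest FPKM. Without TMM, FARS2 (0.77), YARS2 (0.42), and HARS (0.34) no longer passed, and SARS, SARS2, and RARS did not pass on log2(FPKM + 0.1).

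For 13 amino acids, the list holds 1 cytosolic enzyme that charges that amino acid alone and 1 mitochondrial enzyme. EPRS, which charges both glutamate and proline, was not paired with EARS2 and PARS2, and phenylalanine, with its 2 cytosolic subunits, was kept apart. Both were higher in RIP for alanine, cysteine, serine, valine, and tyrosine, and both were lower for arginine. For tryptophan the calls were opposite, with WARS at 1.06 and WARS2 at -0.99. In the other 6 pairs, only 1 of the enzymes passed, which does not show a difference between the 2. Of all genes tested, 26.5% were higher and 24.9% were lower. How often other pairs of genes have such calls was not computed, so these counts have no baseline. Across the 13 pairs, the log2 fold changes of the cytosolic and mitochondrial enzymes had a Spearman correlation of 0.31 and a Pearson correlation of 0.41, which describe genes that share the same 8 libraries.

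The order within a pair was the same in 4 of 4 cell lines for 9 of the 13. The share among other pairs of genes was not computed, so this count has no baseline. The cytosolic enzyme had the higher ratio for cysteine, isoleucine, methionine, asparagine, valine, and tryptophan, and the mitochondrial enzyme for leucine, arginine, and threonine. The difference in log2 ratio, cytosolic minus mitochondrial, had a mean of 2.05 ± 0.52 for tryptophan, 1.80 ± 0.28 for isoleucine, 1.73 ± 1.20 for methionine, and 1.02 ± 0.23 for valine (SD over 4 cell lines). It had a mean of -2.13 ± 0.29 for threonine and -1.26 ± 0.66 for leucine. For asparagine the difference was near 0 in SW1990 (0.0021). For alanine the mean difference of 0.08 ± 0.86 did not exceed its spread over the cell lines. In all, 17 pairs of genes were compared in this way, and no exact sign-flip permutation p over 4 cell lines can fall below 0.125, before any adjustment.

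**Figure D3:**
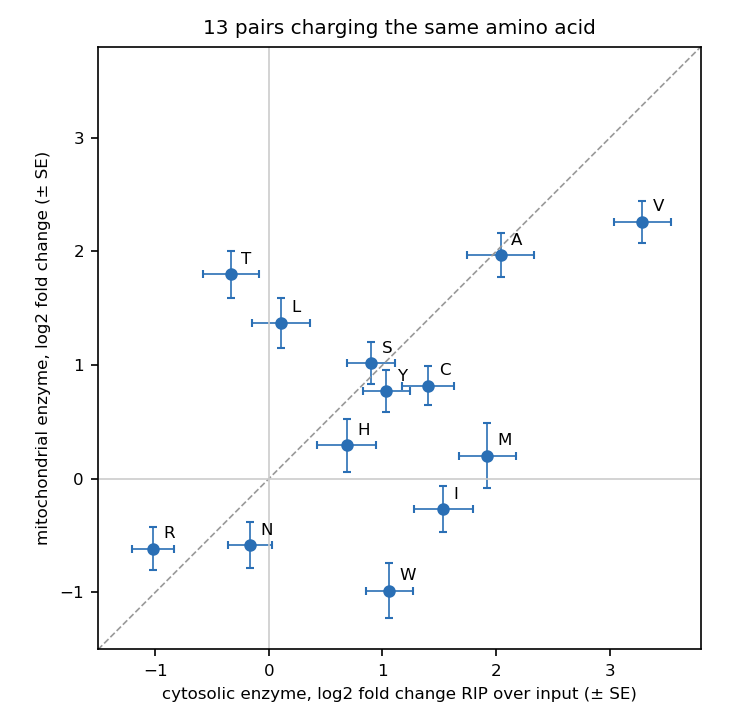
Log2 fold change of RIP over input for the cytosolic enzyme (horizontal) and the mitochondrial enzyme (vertical) of 13 amino acids, named by their 1-letter codes, with bars of 1 SE from the edgeR fit; the dashed line marks equal values. Valine (V) and alanine (A) lie at the upper right and arginine (R) at the lower left, and threonine (T) and tryptophan (W) lie far from the line on opposite sides.

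The 4 cell lines differed in the size of the ratio, and the cytosolic and mitochondrial enzymes differed in which cell line was highest. The median log2 ratio of the 20 cytosolic enzymes was lowest in Hep3B (0.58), followed by DU145 (0.90), SW1990 (1.21), and HCT116 (1.47). The median of the 16 mitochondrial enzymes was 0.78 in Hep3B, 0.94 in DU145, 0.88 in SW1990, and 0.89 in HCT116, a much narrower range. HCT116 had the highest ratio of the 4 cell lines for 17 of the 20 cytosolic enzymes (85.0%) and for 3 of the 16 mitochondrial enzymes (18.8%), beside 27.4% of all genes tested. On the log2(FPKM + 1) scale the counts were 14 of 20 and 4 of 16, beside 25.0% of all genes. Without TMM they were 13 of 20 and 2 of 16, beside 20.9%. HCT116 is represented by 1 pair, so this difference has no test, and the HCT116 cells and that pair of libraries cannot be told apart. The TMM factor of the HCT116 RIP was 0.793, the lowest of the 8, and the part of this scaling in the count was not tested beyond the counts given without it.

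Among the cytosolic enzymes, the highest log2 ratio in HCT116 after VARS (3.61) was that of AARS (3.10), followed by GARS (2.67), FARSA (2.55), and MARS (2.52). QARS, RARS, and WARS show the range of patterns. QARS had its lowest ratio in HCT116 (1.33, against 1.62 to 2.13 in the others), RARS was below 0 in each cell line (-1.20, -0.74, -0.94, and -1.20), and WARS was highest in SW1990 (1.47).

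**Figure D4:**
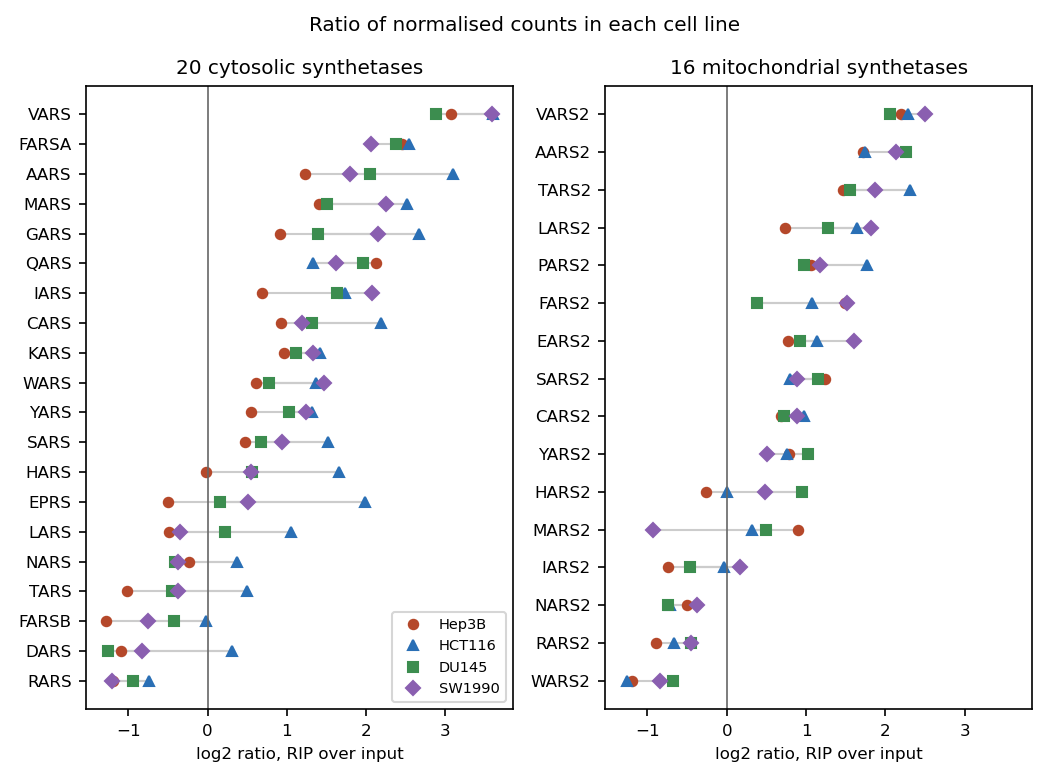
Log2 ratio of RIP to input in each cell line for the 20 cytosolic synthetases (left) and the 16 mitochondrial synthetases (right), with 1 point per cell line and a grey bar over their range. The HCT116 triangle is rightmost in 17 of 20 rows on the left and in 3 of 16 on the right.

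In the inputs, mRNA levels per length were compared between genes as FPKM. The median input FPKM of the 20 cytosolic enzymes was 35.3, 56.3, 41.2, and 53.8 in the 4 cell lines, and that of the 16 mitochondrial enzymes was 12.8, 13.2, 11.5, and 10.7. The 3 highest means over the inputs were those of QARS (95.3 ± 47.9 FPKM), TARS (85.1 ± 50.5 FPKM), and GARS (81.7 ± 15.3 FPKM; SD, n = 4 cell lines). The SDs are wider than the gaps between these means, so that their order is not separated from the spread between cell lines. The lowest mean was that of PARS2 (3.20 ± 2.21 FPKM), followed by FARS2 (3.83 ± 0.71 FPKM) and AARS2 (4.29 ± 1.17 FPKM). IARS2 had the highest mean over the inputs among the mitochondrial enzymes, with 46.2, 52.6, 90.7, and 45.2 FPKM. In SW1990, CARS2 was higher (65.4 FPKM).

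The 4 genes with the widest range between inputs were all mitochondrial. MARS2 had 12.6, 7.13, 3.29, and 20.3 FPKM, a 6.18-fold range. PARS2 had 1.39, 4.23, 1.37, and 5.82 FPKM, a 4.26-fold range. For both, SW1990 was highest and DU145 lowest. YARS2, for tyrosine, had 14.3, 21.1, 11.5, and 44.2 FPKM (3.85-fold), again highest in SW1990, and WARS2 had 6.33, 3.15, 11.5, and 8.34 FPKM (3.65-fold), lowest in HCT116. VARS varied less, with 37.0, 47.6, 43.1, and 43.0 FPKM. Each input is 1 library, so these levels have no test, and the Hep3B and HCT116 libraries were scaled in 1 table and the DU145 and SW1990 libraries in another. Relative to the median FPKM of protein-coding genes in the same library, the highest cell line stayed the same for 34 of the 38 genes and the lowest for 37.

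**Figure D5:**
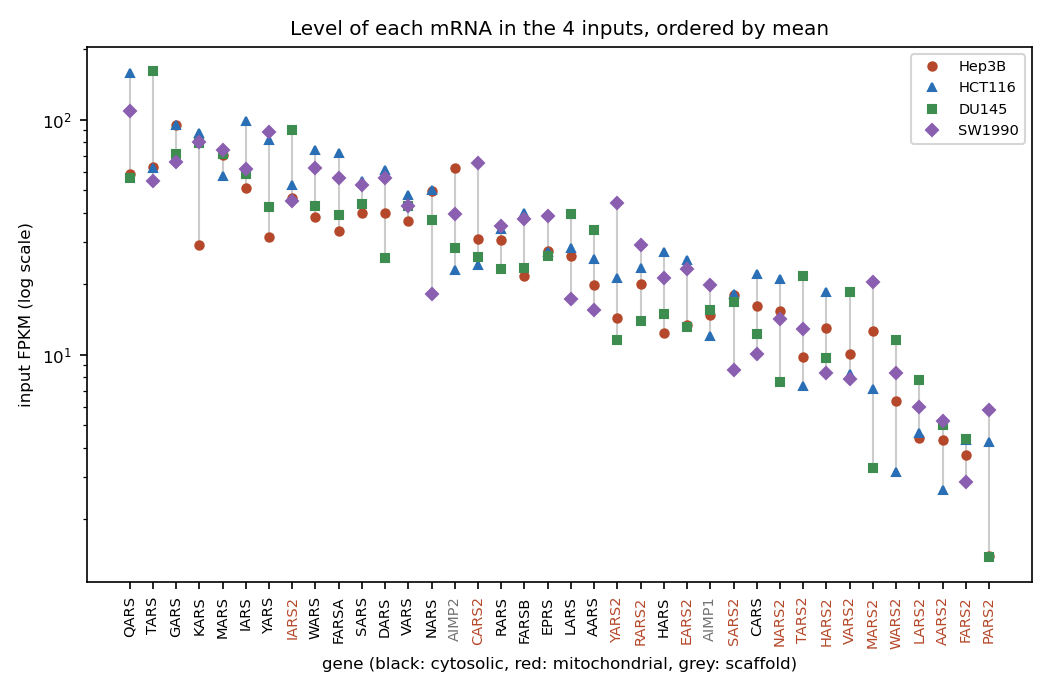
Input FPKM (log scale) of the 38 genes in each cell line, ordered by the mean over the 4 inputs, with names in black for cytosolic, red for mitochondrial, and grey for scaffold genes. QARS, TARS, and GARS lead the order, and most red names stand in its lower part, where MARS2 and PARS2 spread most.

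HARS and HARS2, for histidine, share 1 locus in the tables (chr5:140044260-140086248, hg19) and are transcribed away from each other. The stretch between their start sites is shown because both genes are read from it and their ratios differed by cell line (RefSeq, GRCh38.p14, chr5:140691371-140691454, plus strand, on which HARS2 is read). It is 84 bases long with 59.5% G or C.
HARS to HARS2: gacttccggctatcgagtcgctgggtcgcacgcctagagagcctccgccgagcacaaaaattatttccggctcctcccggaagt

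HARS had 29.2, 63.2, 35.7, and 45.7 CPM in the inputs and 28.9, 199, 52.8, and 66.9 CPM in the RIP libraries. HARS2 had 20.4, 41.0, 14.4, and 12.0 CPM in the inputs and 17.0, 40.9, 27.9, and 16.7 CPM in the RIP libraries. In HCT116, HARS was clearly higher in RIP (log2 ratio 1.66), whereas HARS2 was level. In DU145 the order was turned (0.56 for HARS and 0.95 for HARS2). HARS passed narrowly (log2 fold change 0.69, edgeR adjusted p = 0.0465) and did not pass without the HCT116, DU145, or SW1990 pair (0.37, 0.73, and 0.73). The difference between them had a mean of 0.39 ± 0.88 (SD, n = 4), below its own spread. These 2 genes were chosen after their values were seen.

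Promoter windows of 250 bases before to 50 bases after a start site were found in RefSeq (GRCh38.p14) for 32 of the 38 genes and searched on both strands for TGATGNAAT, the C/EBP-ATF response element bound by ATF4. It was found in TARS and in 1 of the windows of GARS, 2 of 44 windows (4.55%), beside 0.991% of the 35116 windows of all genes. The matches are shown on the plus strand with 10 bases on each side, and the capitals mark the element, which lies on the minus strand (TARS chr5:33440956-33440984 and GARS chr7:30594834-30594862).
TARS: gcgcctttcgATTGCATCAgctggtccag
GARS: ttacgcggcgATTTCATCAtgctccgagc

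A match is a string of letters and not a measured site. The 2 genes with it were both abundant in the inputs and parted in the RIP, where GARS rose by 1.78 on the log2 scale and TARS had -0.34. No window was found for DARS, LARS, VARS, YARS, AARS2, and VARS2.

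Of 15 symbols listed for further genes of tRNA charging, 14 were found and tested. The list held GATB and its older symbol PET112, and only PET112 was found. In this list 1 was higher in RIP, 10 were lower, and 3 did not pass, beside 26.5% higher and 24.9% lower among all genes. The median log2 fold change was -1.14, beside -0.05 for all genes. These genes stood at a median length percentile of 33.6 and the 38 synthetase and scaffold genes at 60.2, and the difference between the lists was not tested. The 1 that was higher was PET112, a subunit of the mitochondrial glutamyl-tRNA amidotransferase (1.48). The other subunits of this amidotransferase, QRSL1 (-0.92) and GATC (-0.89), were lower. EEF1E1, chosen after its values were seen, is the small scaffold protein of the multisynthetase complex. It had 53.1, 52.8, 31.5, and 66.9 CPM in the inputs and 18.7, 11.9, 4.41, and 11.8 CPM in the RIP libraries. The RIP libraries were lower in 4 of 4 cell lines without overlap, with a log2 fold change of -2.25 (edgeR adjusted p = 4.22e-05). Lower as well were the D-aminoacyl-tRNA deacylases DTD1 (-1.17) and DTD2 (-2.40), the CCA-adding enzyme TRNT1 (-1.60), the peptidyl-tRNA hydrolase PTRH2 (-1.46) and the related PTRHD1 (-1.11), and PSTK (-1.53) and SEPSECS (-1.17), which turn serine on its tRNA into selenocysteine. TARSL2, AARSD1, and MTFMT did not pass.

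Fold changes rose weakly with length, and the genes alone at their locus had a lower median than the 38 genes together. The rank of gene length, taken from the ratio of fragments to FPKM, had a Spearman correlation with the log2 fold change of 0.27 over the 19921 genes and of 0.27 over the 38 genes, where genes share the same 8 libraries. The tables give 29 of the 38 genes the same locus as other genes, up to 8 genes at 1 locus. The 9 genes alone at their locus were 4 higher, 3 lower, and 2 not past the threshold, with a median log2 fold change of -0.16. Among all genes tested, at shared and unshared loci together, 26.5% were higher and 24.9% were lower. The same counts were not made over all genes alone at their locus, so those for the 9 genes have no baseline. Among these 9 genes, the 4 that were higher were QARS, SARS, PARS2, and TARS2, and the 3 that were lower were RARS, FARSB, and RARS2. The library kit was stranded, but it is not stated whether the counting used strand, and the parts of length and shared loci in the fold changes were not tested.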

How the data were processed

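RNA from RPS6 RIP and input was sequenced with a stranded total RNA kit. The submitters' processing notes name CASAVA 1.8, TopHat2 2.0.9, and hg19, and the tool that counted fragments is not given in the sources used here. The authors deposited an FPKM for each gene and library, normalized for length and depth, and an estimated count for each gene and library, scaled by 1 factor per library. The 2 tables (Hep3B with HCT116, DU145 with SW1990) were scaled separately. Their columns of fold changes, p-values, and q-values compare 1 library with 1 library and were not used.

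The estimated counts were multiples of a step of 0.673 to 1.27 per library. Division by it gave whole fragments, within 0.05, for 90.4% to 93.4% of values, and these gave the depth. The planned design assumed raw counts, so the estimates were rounded before the test with edgeR 4.0.16 (R 4.3.3, quasi-likelihood test, TMM, cell line as block, mean of at least 10 counts, Benjamini-Hochberg adjustment over all genes tested, threshold 0.05). RIP and input of a cell line come from the same cells, which pairs them. Across genes, which are not independent replicates, deviations from the group means had r of 0.84 to 0.89 between the 2 libraries of a cell line and of -0.47 to -0.04 between RIP and input of different cell lines. Ratios within a cell line are ratios of normalised CPM. The fit was tested on simulated counts in which 200 genes were changed. It recovered 33 of 100 genes changed by a log2 fold of 1 and 65 of 100 changed by 2. Of its 105 calls, 7 were false. The 200 were drawn from 19921 genes, whereas 5282 genes were higher and 4960 were lower in the data. The simulation therefore does not give the recovery for the synthetase genes. A gene that did not pass is not shown to be unchanged. The sign-flip test was checked on fixed sets of values.

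Values per library are given for the genes past the threshold with the 6 highest and 6 lowest log2 fold changes, for the 3 with the highest mean input FPKM, and for their partners with the same amino acid. The 4 with the widest input range are also named. Values per library or cell line of EPRS, LARS, HARS, HARS2, AIMP2, IARS2, and EEF1E1 are given beyond this rule and were chosen after they were seen. The genes, lists, and tests were chosen with earlier results of these data known. Alternatives left out the block or TMM, used DESeq2 1.42.0, limma 3.58.1 with pseudocounts of 1 or 0.1 on log2 FPKM, the recovered fragments, other minimums on counts, and levels relative to protein-coding genes, and left out each cell line. Of the lists of other charging genes and of prostate markers, 1 gene and 2 genes are not reported here. The counts of genes highest in HCT116 and their 2 other scales were added after the values were seen. Names and promoter windows came from RefSeq (GRCh38.p14), which matched all 38 genes. The other steps used pandas 2.3.3, NumPy 2.4.6, and SciPy 1.17.1 in Python 3.11.15, and figures were drawn in matplotlib 3.10.9.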

Additional observations from a re-analysis of the deposited data

Results flagged for a closer look

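For each of the 38 genes, the 4 input FPKM values, the 4 RIP FPKM values, and the 4 log2 ratios were searched for a cell line that stands apart by Dixon's test, 114 groups of 4 in all, and 6 were found, where chance gives about 5.7. EPRS, the fused enzyme for glutamate and proline, was found in both kinds of library. Its RIP level in HCT116 was 159 FPKM (log2 7.31), against 36.8 to 41.2 in the other 3 cell lines, and its input level in SW1990 was 38.9 FPKM (log2 5.28), against 26.2 to 27.6, although its CPM in that input was the lowest of the 4. TARS, for threonine, had 161 FPKM (log2 7.33) in the DU145 input, against 54.9 to 62.6 in the others. KARS, for lysine, had 29.3 FPKM (log2 4.87) in the Hep3B input, against 79.6 to 87.9. The mitochondrial enzymes IARS2 and SARS2 were low in 1 library each, IARS2 with 38.3 FPKM (log2 5.26) in the Hep3B RIP, against 62.1 to 63.9, and SARS2 with 8.58 FPKM (log2 3.10) in the SW1990 input, against 16.8 to 18.1.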

How the results depend on the processing

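Of the 30 genes that passed, 20 (18 higher and 2 lower, AIMP1 and WARS2) kept their call under all 11 alternatives that kept the block, 10 kept it under all 12, and none changed direction. The share of all called genes that kept their call was not computed, so these counts have no baseline. Without the replicate block, which ignores that RIP and input of a cell line are paired, 9 were higher and 1 was lower. The shares of all genes were 7.16% and 6.75%. With limma, 3 were lower on log2(FPKM + 1) and 2 on log2(FPKM + 0.1), beside 18.2% and 18.5% of all genes. Between 20 and 24 were higher under all alternatives with the block, where 3888 to 5664 of all genes tested were higher. Leaving out each cell line gave 22 to 23 higher and 3 to 5 lower, the 3 without the DU145 pair. Over all genes it gave 4448 to 4808 higher and 4084 to 5083 lower, of 19325 to 19987 tested. The median log2 fold change of the mitochondrial enzymes was 0.57 without TMM and 0.81 to 0.93 with each cell line left out, the 0.81 without the Hep3B pair. That of the cytosolic enzymes was 0.70 without TMM and 0.94 to 1.11 with each cell line left out. Among genes that did not pass, the sign turned without TMM for LARS (-0.24), HARS2 (-0.058), and MARS2 (-0.15), without the HCT116 pair for LARS (-0.19), without the Hep3B pair for MARS2 (-0.13), and with limma on both scales for NARS (0.18) and TARS (0.033). Without TMM, NARS, TARS, and IARS2 passed as lower. The causes were not tested. With 1 pair per cell line, levels and ratios of a single cell line have no replicate check.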
